A study of Bos taurus with 8 samples.

Results

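Genes that copy DNA and genes that divide the chromosomes were examined in tissue of the rumen, the fermentation chamber of the ruminant stomach. The set holds 53 genes, chosen by symbol for their known roles, and all 53 were among the 33132 gene names of the count table and among the 16326 that passed the filter on low counts. RNA was sequenced from 8 male animals crossed from the angus breed, 1 library per animal, namely 4 neonatal calves and 4 adult steers. Steers are castrated males, so age and castration differ together between the groups, and the labels give no ages, diets or batches. The series set out to find which pathways and factors act as the rumen grows after birth.

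As background, a dividing cell first loads the MCM helicase onto DNA with the help of ORC, CDC6 and CDT1. It then fires those origins with CDC45 and the GINS complex and copies the DNA. E2F factors drive the genes of that phase. Later, MYBL2 and FOXM1 drive the genes of mitosis, in which cyclin B with CDK1, the Aurora and Polo kinases, the kinetochore and spindle motors separate the chromosomes. In a stratified squamous epithelium such as that of the rumen, division is confined mainly to the basal and nearby layers, and the layers above are postmitotic.

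Only 1 of the 53 genes passed the test between calves and steers, where 16.9% of all tested genes did, but most of the 53 differed widely between one calf and another. Steer libraries lay close together. Among calves the replication genes and the mitosis genes parted: calves 1 and 3 were high in every mitosis gene, whereas calves 3 and 4 were high in most replication genes. Together the 53 genes held from 0.0669% to 0.212% of the counts of a calf library and from 0.0736% to 0.118% of those of a steer library, with libraries of 42322022 to 54449684 counts. The lowest count of any of the 53 genes in a library was 20. Each mate of a read pair was tallied by itself, so counts can exceed the number of fragments. Whole-tissue RNA cannot tell apart fewer dividing cells from less of these RNAs in each dividing cell.

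Values below are CPM, counts scaled to a common library size (counts per 10 to the power of 6) after TMM scaling, which corrects for differences in composition. Changes are log2 fold changes of steers over calves. They come from edgeR's quasi-likelihood test, with p adjusted over all tested genes by the Benjamini-Hochberg method, and genes under 0.05 count as called. Nothing in the labels links an animal of one group to one of the other.

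MKI67 encodes Ki-67, which coats mitotic chromosomes and is the standard marker of dividing cells. It lies on chromosome 26 from 47507658 to 47537765 on the minus strand, in the count table's own coordinates, for which no genome build is given in the sources used here. Calves 1 to 4 had 85.3, 9.79, 156 and 24.5 CPM, and steers 1 to 4 had 86, 46.9, 49.6 and 54.9 CPM. Every steer lay inside the range of the calves, whose highest animal was 15.9 times the lowest, against 1.84 times in steers. The means were 68.8 ± 66.4 and 59.4 ± 18.1 CPM (SD, n = 4 per group), and the change of -0.21 ± 0.68 (SE) had an adjusted p of 0.867 in edgeR. TOP2A, the topoisomerase that untangles chromosomes before they part, was high in the same calves. It was at 22.9, 4.95, 53.1 and 4.56 CPM in calves and at 20.2, 11.7, 23.4 and 24.7 CPM in steers. Its change was -0.10 ± 0.70. Without calf 3 the changes were 0.57 for MKI67 and 0.89 for TOP2A, and neither gene was called in that fit either.

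**Figure D1:**
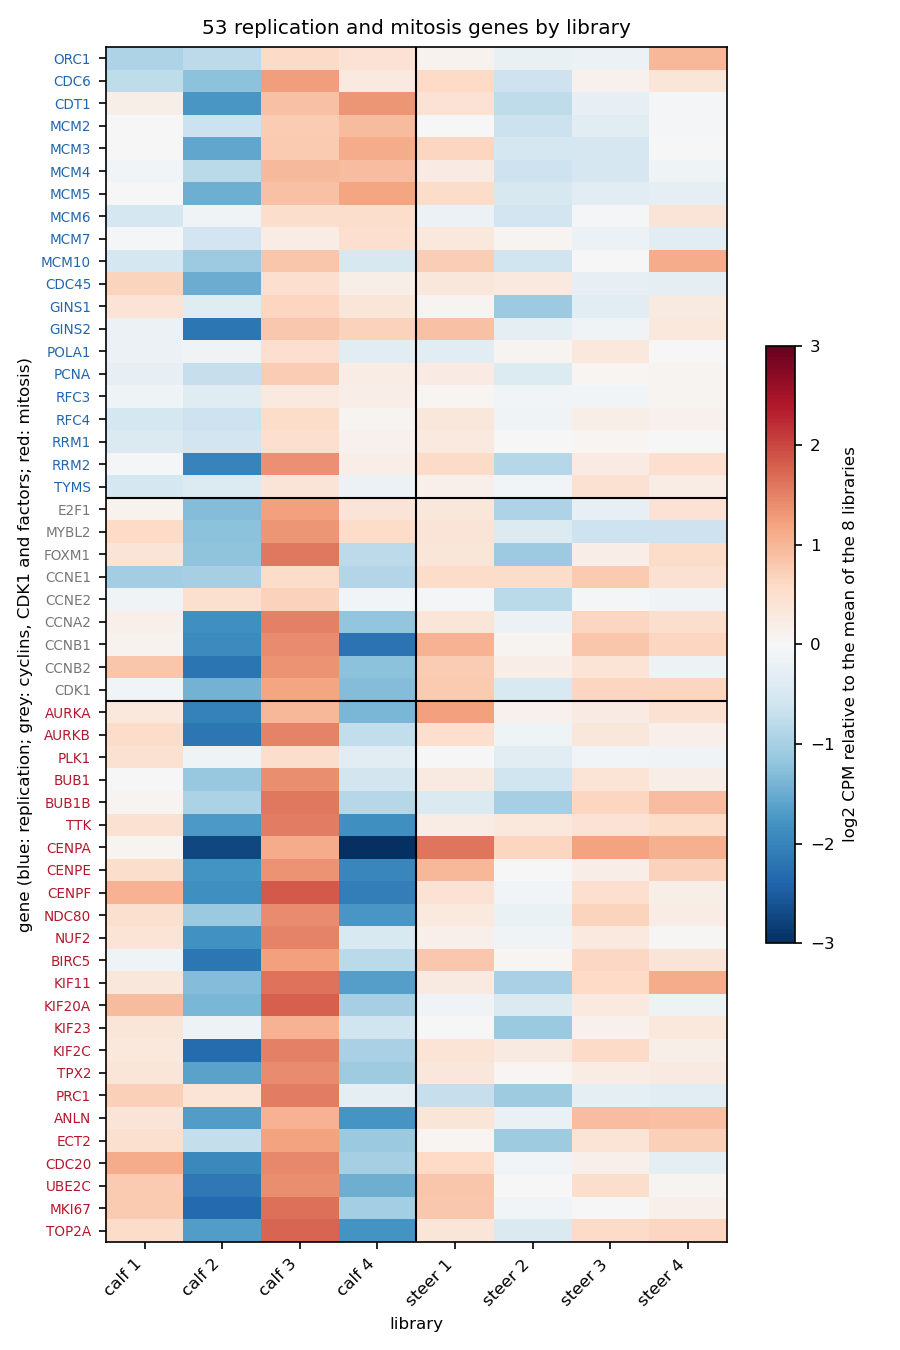
Log2 CPM of each of the 53 genes (rows) in each library (columns), as the difference from that gene's mean over the 8 libraries, with colour from -3 (blue) to 3 (red). Calf 3 is red in all rows, calves 2 and 4 are blue in nearly all mitosis rows, calf 4 is red in most replication rows, and the steers are mostly pale.

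Spread between animals was taken as the SD of log2 CPM over the 4 animals of a group, where an SD of 1 is a 2-fold scatter. Its median over the 53 genes was 1.20 in calves and 0.39 in steers. Over all 16326 tested genes the order was the opposite, with medians of 0.39 in calves and 0.49 in steers. The SD was larger in calves for 52 of the 53 genes, compared with 35% of all tested genes. The exception was GINS1, a subunit of the GINS complex, with SDs of 0.43 and 0.60. In 35 of the 53 genes the highest calf was over 4 times the lowest (13.3% of all tested genes), and in steers this held for 1 gene, the spindle motor KIF11 (20.8% of all tested genes). These are descriptions of 4 animals a group, and the difference in spread was not given a test.

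The wider spread in calves remained when any 1 library was left out, although its size changed. With each library left out in turn, the median calf SD was 0.97 to 1.45, and between 45 and 53 genes had the larger SD in calves. Scaling by library size alone gave medians of 1.11 and 0.46 and a larger calf SD in 48 genes. Calf 2 had the highest scaling factor, 1.27, against 0.92 to 1.04 in the other calves. The steer median was 0.25 without steer 2.

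**Figure D2:**
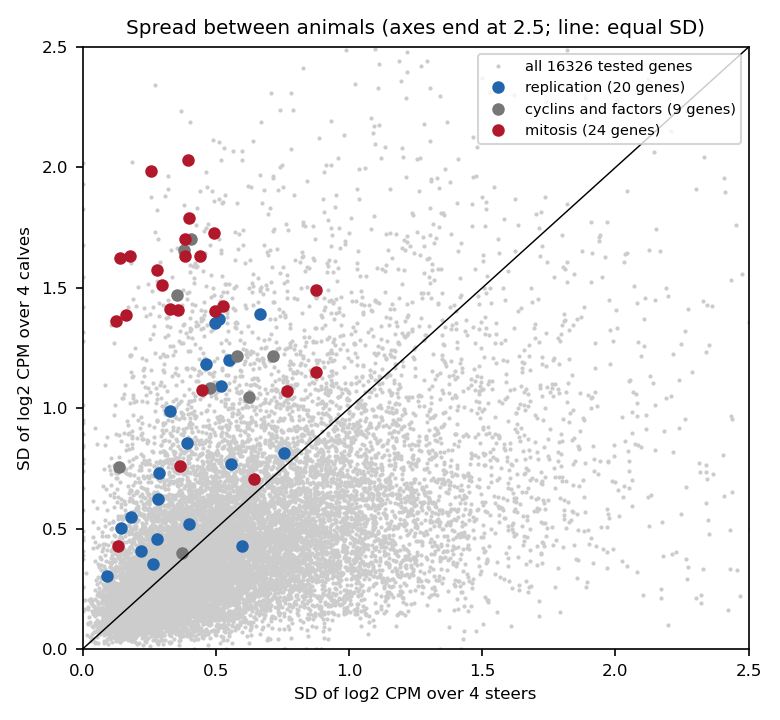
SD of log2 CPM over 4 calves (vertical axis) against the SD over 4 steers (horizontal axis) for each gene; grey points are all tested genes and the line marks equal SD. All 24 mitosis genes and 19 of 20 replication genes lie above the line, and the highest is CENPA at 2.03 in calves and 0.39 in steers.

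The genes were divided by role into 20 replication genes (origin licensing, helicase, DNA synthesis, nucleotide supply), 24 mitosis genes (kinases and checkpoint, kinetochore, spindle, cytokinesis, anaphase, chromosome structure) and 9 cyclins, CDK1 and transcription factors. In each of the 24 mitosis genes, calves 1 and 3 were both above calves 2 and 4, an arrangement found in 16.4% of all tested genes. In 17 of the 20 replication genes it was calves 3 and 4 that were both above calves 1 and 2, as in 11.7% of all tested genes. Calf 4 was above calf 1 in 17 of 20 replication genes and in 0 of 24 mitosis genes, against 49.8% of all tested genes. The arrangement of calves 1 and 3 above 2 and 4 was found in only 2 replication genes, and that of calves 3 and 4 above 1 and 2 in 0 mitosis genes. The 3 departures among replication genes were CDC45, GINS1 and POLA1. Over the 53 genes, calf 3 was the highest calf in 46 (25.3% of all tested genes), calf 4 in 6, all of them replication genes (25.5%), calf 1 in CDC45 (17.1%) and calf 2 in 0 (32%). Calf 2 was the lowest calf in 34 (31.6%) and calf 4 in 14 (26.8%).

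The mean log2 CPM of the mitosis genes was 3.69, 1.72, 4.61 and 2.01 in calves 1 to 4 and 2.96 to 3.62 in steers. That of the replication genes was 4.08, 3.34, 4.97 and 4.69 in calves and 3.90 to 4.58 in steers. Calf 3 was thus the highest of the 8 libraries in both classes and calf 2 the lowest in both, while calf 4 was low in one and high in the other. Because the 2 classes hold different genes, only the change of their difference from library to library can be read. The mitosis mean less the replication mean was -0.39, -1.62, -0.37 and -2.68 in calves 1 to 4 and -0.97, -0.94, -0.57 and -0.87 in steers. It ranged over 2.32 log2 units among calves and 0.40 among steers.

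**Figure D3:**
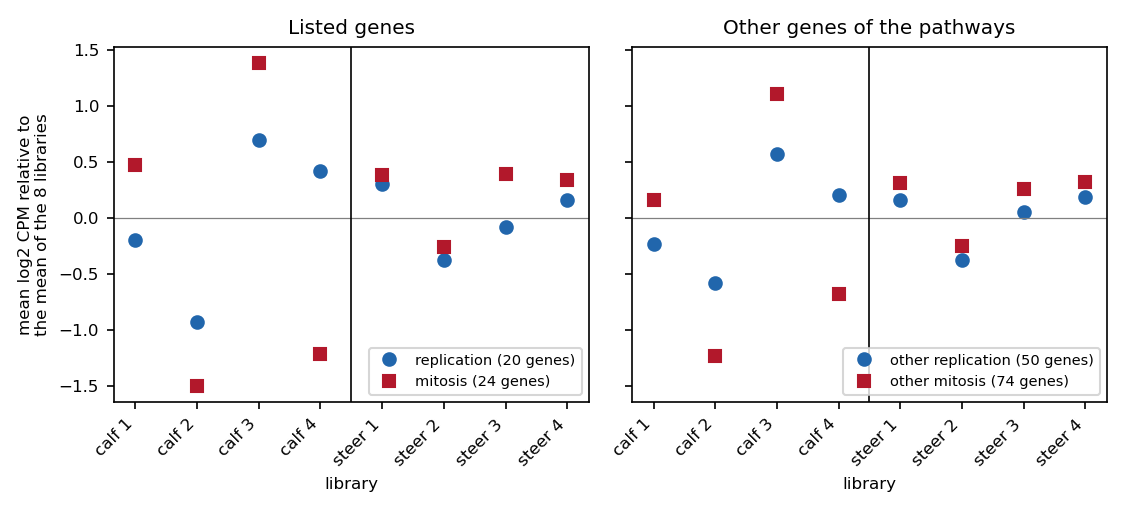
Mean log2 CPM of the replication genes (blue circles) and mitosis genes (red squares) in each library, as the difference from the mean over the 8 libraries, for the listed genes (left) and for other genes of the same pathways (right). Calf 4 lies above 0 for replication (0.42) and below it for mitosis (-1.21), and the same is seen on the right (0.21 and -0.68).

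Origin licensing genes scattered strongly in calves. CDT1, which loads the helicase and is destroyed once copying starts, was at 20.3, 5.32, 32.8 and 44.9 CPM in calves and 24.2, 10.5, 15 and 17.2 CPM in steers. It is on chromosome 18 from 14008575 to 14012905 on the plus strand. Calf 4 was 8.44 times calf 2, and the steers fell between these calves. Its change of -0.63 ± 0.53 was not called (adjusted p = 0.46, edgeR). CDC6, the other loader, had 1.63, 1.17, 6.57 and 3.39 CPM in calves and 1.78 to 4.15 in steers. ORC1, the largest subunit of the origin recognition complex, ran from 0.885 to 2.5 CPM in calves and from 1.45 to 3.37 in steers. For ORC1, 29.1% of the counted span lies in another gene, and reads there were not counted.

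The 6 subunits MCM2 to MCM7 form 1 ring, the helicase that opens the DNA. MCM2 (chromosome 22, 59896016 to 59919972, minus strand) was at 74.5, 48.1, 127 and 144 CPM in calves and at 73.7, 47.9, 58.7 and 71.2 CPM in steers. Calves 3 and 4 were well above all steers, while calf 1 was level with the highest steer and calf 2 with the lowest. The change of MCM2 was -0.65 ± 0.33 (adjusted p = 0.217, edgeR), with a 95% interval from -1.39 to 0.10. MCM7 was at 120, 84.3, 147 and 177 CPM in calves and 155, 132, 111 and 99.6 CPM in steers, a change of -0.08 ± 0.26. All 6 subunits were higher in calves 3 and 4 than in calves 1 and 2. The ratio of the highest calf to the lowest was not alike across the ring, at 6.47 for MCM3 and 6.23 for MCM5, 3.42 for MCM4 and 2.99 for MCM2, and about 2.1 for both MCM6 and MCM7.

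The other helicase genes were less alike. GINS2, of the complex that activates the helicase, was at 8.97, 2.24, 17.7 and 16.5 CPM in calves and 18.7, 8.41, 9.46 and 12.6 in steers, a change of 0.12 ± 0.54. CDC45, its partner, was low in calf 2 only, at 13 CPM against 41.6 to 57.9 in the other calves and 30.5 to 46.3 in steers. MCM10, which helps start the fork, was higher in calf 3 (7.7 CPM) than in the other calves (2.01 to 3.05), and reached 9.29 in steer 4. MCM10 was called, as higher in steers, only in the fit with smooth muscle markers as a covariate.

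Most genes of DNA synthesis and nucleotide supply had a calf SD below the median of the 53 genes, at 0.30 to 0.62 except in RRM2 (1.39), against a median of 0.39 over all tested genes. PCNA, the clamp that holds the polymerase, was at 36, 26.8, 73.2 and 49.7 CPM in calves and 50.9, 32.2, 44.3 and 45.1 in steers. Its change was -0.11 ± 0.30, and its interval of -0.78 to 0.57 leaves out a 2-fold change in either direction. RFC4, of the complex that loads the clamp, was at 6.89, 6.47, 14.5 and 10.6 CPM in calves and 12.6, 9.27, 11.2 and 10.8 in steers, a change of 0.19 ± 0.29. RFC3 of the same complex had the narrowest range of the 53 genes, 9.99 to 15.8 CPM in calves and 12.1 to 13.7 in steers. The polymerase subunit POLA1 ranged from 8.64 to 15.1 CPM in calves and was highest in calf 3 alone.

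RRM2, the regulated subunit of ribonucleotide reductase, which makes deoxynucleotides, stood apart from its neighbours in this group. It was at 15.3, 3.88, 39.9 and 17.9 CPM in calves, a range of 10.3 times, and at 23.3, 8.52, 18.4 and 21.9 CPM in steers. Its change was -0.09 ± 0.58. The partner subunit RRM1 spanned 24.6 to 52.1 CPM in calves, a range of 2.11 times, and 36.6 to 45.1 in steers. TYMS, which makes thymidylate, had 16.4, 17.8, 31.1 and 21 CPM in calves and 26.7, 22.5, 32.7 and 28 in steers. All steers exceeded all calves but calf 3, and the change of 0.35 ± 0.24 was not called (adjusted p = 0.359, edgeR).

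**Figure D4:**
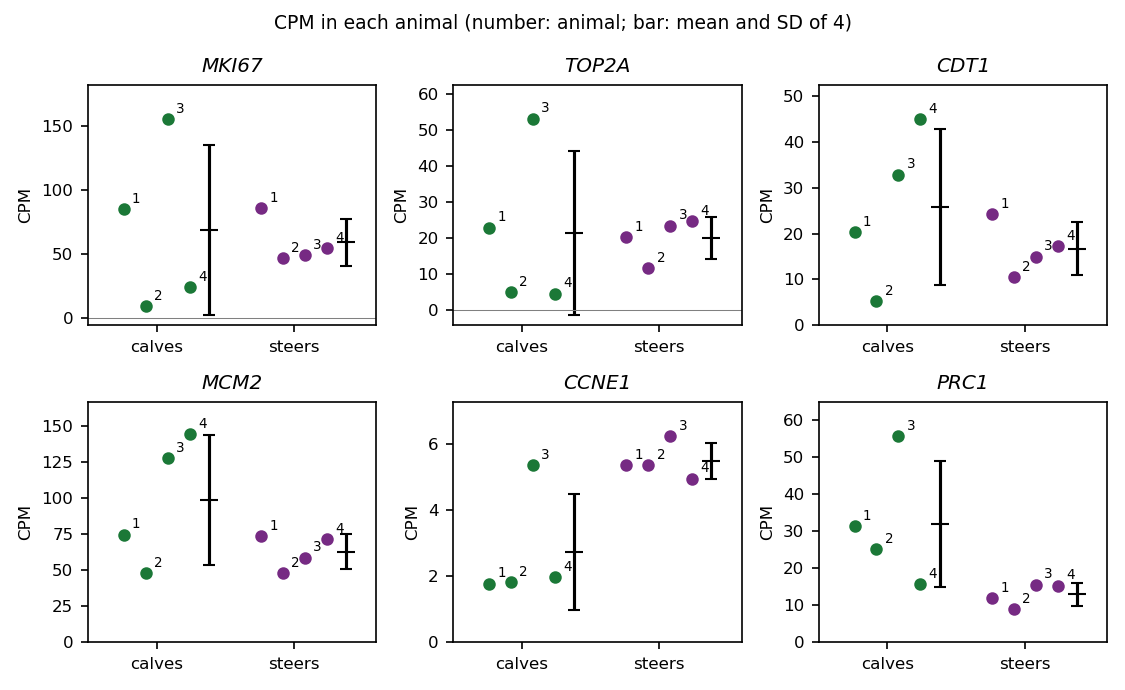
CPM (vertical axis, from 0) of 6 genes in each animal, with the mean and SD of the 4 animals of a group as a bar. MKI67 and TOP2A are high in calves 1 and 3, CDT1 and MCM2 in calves 3 and 4, CCNE1 in calf 3 alone (5.35 CPM), and all calves exceed the steers in PRC1.

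In all 3 transcription factors calf 3 was the highest calf and calf 2 the lowest, and they differed in where calf 4 lay. E2F1, which drives replication genes, was at 16, 6.02, 34.7 and 19.2 CPM in calves and 7.74 to 19.9 in steers. MYBL2 was at 62.2, 17.5, 103 and 59.4 CPM in calves and 53.3, 30.9, 26.5 and 26.7 CPM in steers. Calves 1, 3 and 4 were above all steers and calf 2 was below them, and the change of -0.82 ± 0.46 was not called (adjusted p = 0.257, edgeR). Calves 1 and 3 were above calves 2 and 4 in MYBL2, as in the mitosis genes, but calf 4 was close to calf 1. Without calf 2 MYBL2 was called as lower in steers, at -1.13. FOXM1 was scarce, at 1.56, 0.519, 3.6 and 0.69 CPM in calves and 1.52, 0.557, 1.38 and 1.74 CPM in steers, a change of -0.29 ± 0.63. Across the 8 libraries, after each group's mean was subtracted, E2F1 and MYBL2 correlated more with the replication genes (Pearson r of 0.96 and 0.86) than with the mitosis genes (0.74 and 0.73), and FOXM1 more with mitosis (0.94 against 0.70). These are descriptions over libraries that share scaling and group means.

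Cyclin E, the partner of CDK2 at the entry to replication, comes from CCNE1 and CCNE2, which did not behave alike. CCNE1 (chromosome 18, 40423583 to 40435551, plus strand) was at 1.77, 1.82, 5.35 and 1.97 CPM in calves and at 5.35, 5.34, 6.22 and 4.94 CPM in steers. Calves 1, 2 and 4 lay together at well under the steers and calf 3 lay among the steers. The change was 1.00 ± 0.40 with an interval from 0.10 to 1.90, and it missed the threshold after adjustment (adjusted p = 0.119, edgeR). It passed without calf 3, at 1.56, and with limma-voom. CCNE2 was at 4.54, 6.83, 7.91 and 4.62 CPM in calves and 2.78 to 4.8 in steers, a change of -0.50 ± 0.31.

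The cyclins of later phases and CDK1 followed the mitosis genes. CCNB1, the cyclin that takes cells into mitosis, was at 7.36, 1.81, 18.1 and 1.46 CPM in calves and 14, 7.24, 12.1 and 10.5 in steers. Its highest calf was 12.3 times its lowest, against 1.93 times in steers. CDK1, its kinase, was at 14.4, 5.69, 34.6 and 6.15 CPM in calves and 26, 11, 23.9 and 23.9 in steers, with 29.3% of the counted span shared with another gene. The changes of CCNB1 and CDK1 were 0.61 ± 0.70 and 0.48 ± 0.55. CDK1 was called as higher in steers only when calf 3 and steer 2 were left out together. CCNA2, which acts in both phases, ran from 1.84 to 18.7 CPM in calves and from 5.87 to 10.3 in steers, and CCNB2 from 1.67 to 19.3 and from 6.87 to 12.9.

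The widest calf spreads of the 53 genes were in the kinetochore genes CENPA and CENPF. CENPA, the histone that marks centromeres (chromosome 11, 72791037 to 72799136, minus strand), was at 12.8, 1.81, 26.1 and 1.51 CPM in calves and 36.3, 18.8, 27.9 and 25 CPM in steers. Calves 2 and 4 were far below every steer, calf 1 was below them, and calf 3 was inside their range. Its change, 1.36 ± 0.78, was the highest of the 53 and was not called (adjusted p = 0.27, edgeR), with an interval from -0.39 to 3.11. CENPF, a kinetochore protein of late phases, spanned 2.76 to 42 CPM in calves and 11.1 to 16.5 in steers. CENPE, the kinetochore motor, spanned 1.09 to 10.6 and 4.23 to 8.32. BIRC5 (survivin), NUF2 and NDC80 had calf ranges of 10.6, 9.96 and 8.95 times and steer ranges of 1.7, 1.31 and 1.85 times.

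Mitotic kinases and checkpoint genes shared the pattern, with 1 of 6 much less spread. AURKA, the kinase of spindle poles, was at 10.9, 2.16, 17.7 and 3.43 CPM in calves and 20.8, 9.63, 10.5 and 12.1 in steers, a change of 0.63 ± 0.59. TTK, the kinase that starts the spindle checkpoint, was at 3.49, 0.77, 7.37 and 0.711 CPM in calves, but at 2.95, 3.17, 3.43 and 3.72 CPM in steers, where its SD was 0.14. The steers lay close to calf 1, far above calves 2 and 4 and below calf 3. AURKB, BUB1 and BUB1B had calf ranges of 12.5, 5.73 and 5.82 times and steer ranges of 1.57, 2.01 and 3.76 times. PLK1, the Polo kinase, ranged only from 19.7 to 35.9 CPM in calves and from 19.9 to 24.8 in steers, and its change was -0.30 ± 0.23.

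Among spindle genes, PRC1 was the 1 gene of the 53 that was called. PRC1 bundles the microtubules of the central spindle and lies on chromosome 21 from 21676303 to 21699412 on the plus strand. It was at 31.4, 25.2, 55.6 and 15.6 CPM in calves and 11.9, 9.05, 15.5 and 15.3 CPM in steers. The groups did not overlap, but calf 4 exceeded steer 3 only marginally. Its change was -1.30 ± 0.37 (adjusted p = 0.0376, edgeR), lower in 4 of 4 steers than in every calf. PRC1 was no longer called once any of calf 1, calf 3, steer 1, steer 2 or steer 3 was omitted (changes of -1.40 to -0.90). The same happened under scaling by library size, in limma-voom, and with the replicate number or either set of cell type markers in the fit (-1.38 to -0.71).

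The other spindle and exit genes were as spread as the kinases. KIF2C, a motor that takes microtubules apart, was at 8.06, 1.3, 18.5 and 3.3 CPM in calves and 8.55, 7.85, 9.69 and 7.26 in steers. TPX2, which builds microtubules near chromosomes, spanned 5.22 to 41.9 CPM in calves and 16.3 to 20 in steers. The motors KIF11, KIF20A and KIF23 had calf ranges of 9.62, 8.98 and 3.14 times, although 54.6% of the span of KIF23 is shared with another gene. ANLN, a scaffold of the cleavage furrow, was at 12.3, 2.98, 19.6 and 2.76 CPM in calves and 12.2, 8.3, 17.9 and 17.8 in steers, with 35.4% of its span shared. ECT2, which sets up that furrow, spanned 2.55 to 12.9 CPM in calves and 2.67 to 9.15 in steers.

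CDC20 and UBE2C serve the anaphase promoting complex, which destroys cyclin B. CDC20 was at 48.4, 5.89, 61.4 and 11.3 CPM in calves and 34.2, 21.2, 24.9 and 18.4 in steers. UBE2C was at 37.8, 4.99, 57.5 and 7.93 CPM in calves and 39.1, 22, 31.5 and 23.4 in steers. In both, calves 1 and 3 were at or above most steers and calves 2 and 4 were below all of them. Their changes were -0.36 ± 0.63 and 0.10 ± 0.66.

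Of the 53 genes, then, 0 were called higher and 1 lower in steers, where 16.9% of all tested genes were called (7.7% higher, 9.16% lower). At an unadjusted p under 0.05 there were 2, PRC1 and CCNE1, against 31.7% of all tested genes. DESeq2 also called PRC1 alone of the 53, and limma-voom called CCNE1 alone. Of all 16326 tested genes, DESeq2 called 4080 and limma-voom 2841. The groups did not overlap for 1 gene, against 23.3% of all tested genes. The median change was -0.09 over the 53 genes and 0.04 over all tested genes, with 22 changes above 0 and 31 below. The 95% interval lay within 2-fold in both directions for 10 of the 53 genes, 9 of them replication genes, against 33.8% of all tested genes. For the other genes the interval reached a 2-fold change in at least 1 direction.

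The sign of that median depends on the scale. The fitted change compares group means of counts, in which calf 3 weighs most, and the mean of log2 CPM over the 53 genes was 3.44 ± 1.00 in calves and 3.69 ± 0.31 in steers, higher in steers by 0.26. The median change was 0.50 without calf 3, -0.31 without calf 2, 0.27 with limma-voom, and 0.54 and 0.56 with the smooth muscle or basal keratinocyte markers as a covariate.

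**Figure D5:**
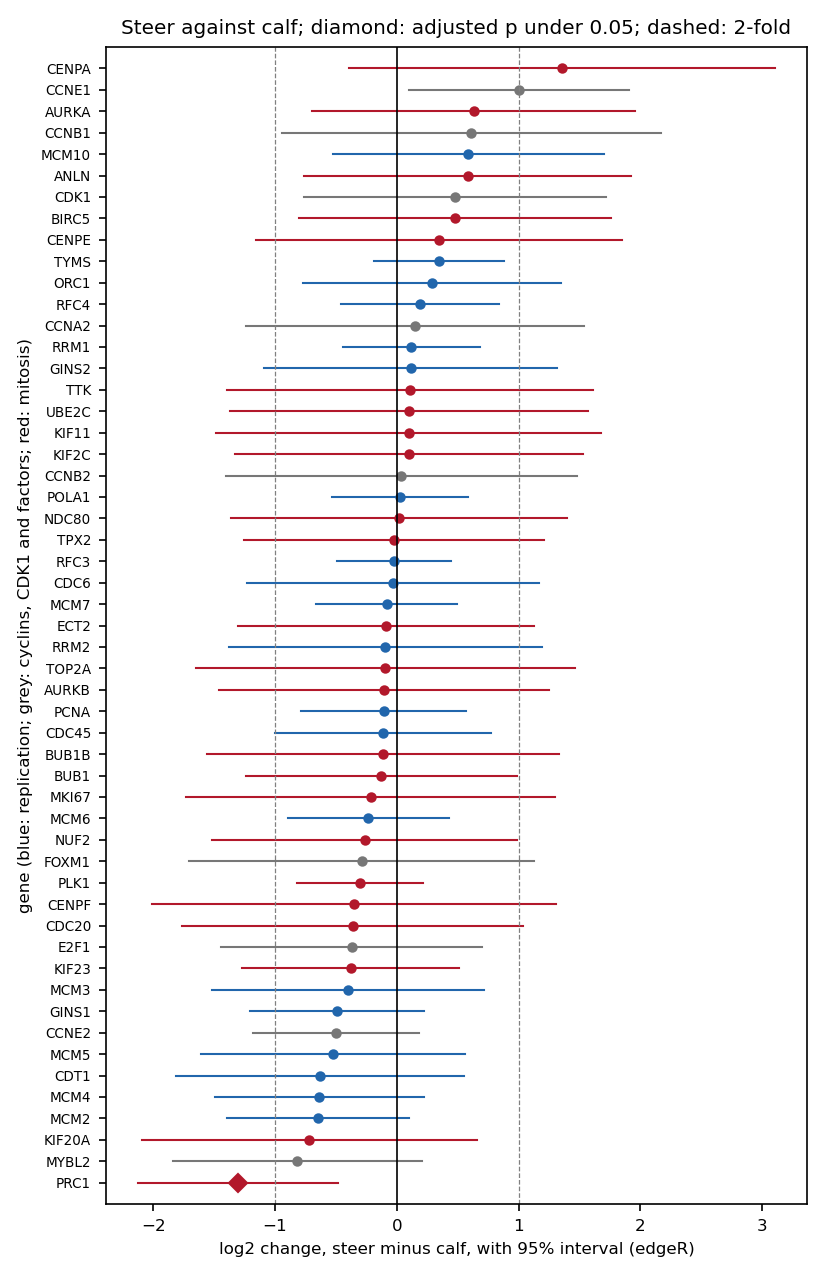
Log2 change of each of the 53 genes, steer minus calf (horizontal axis), with its 95% interval from the edgeR fit; dashed lines mark a 2-fold change. PRC1 (diamond) is the only called gene, CCNE1 has an interval above 0, and many red intervals cross both dashed lines.

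The same arrangement of animals held in other genes of these pathways. Of 74 other mitosis genes tested, calves 1 and 3 were both above calves 2 and 4 in 62, and calf 3 was the highest calf in 71. Of 50 other replication genes, calves 3 and 4 were both above calves 1 and 2 in 34, and calf 4 was above calf 1 in 42. Median SDs were 1.07 in calves and 0.40 in steers for other mitosis genes, and 0.56 and 0.38 for other replication genes. In the first list 0 genes were called higher and 1 lower in steers, and in the second 0 were called in either direction (5 and 3 at an unadjusted p under 0.05, which are 6.76% and 6% of these lists, against 31.7% of all tested genes). The called gene was STMN1, which destabilises microtubules, at 107, 59.1, 133 and 99.5 CPM in calves and 55.8, 44.5, 40.1 and 26.2 in steers (-1.26 ± 0.30). DESeq2, which called 4080 of all 16326 tested genes, also called LMNB1 and TUBB4B (lower in steers) and MAD2L1 (higher) of the first list. Of the second it called RPA3 and POLE3 (higher). These 5 genes were named for those calls. MAD2L1 was at 4.08, 1.74, 7.91 and 2.82 CPM in calves and 7.37, 10.2, 5.53 and 30.1 in steers, so its groups overlapped and steer 4 weighed most.

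Of 42 tested regulators of entry into and exit from the cycle, 5 rose and 2 fell in steers. Together these were 16.7% of the list, close to the 16.9% of all tested genes. Their median SDs were 0.34 in calves and 0.44 in steers, near those of all tested genes. Calf 3 was nevertheless the highest calf in 22 of the 42 (52.4%, against 25.3%), and 9 had a calf range over 4 times (21.4%, against 13.3%). Among them, E2F2, E2F7 and E2F8, of the E2F family, had calf SDs of 1.55, 1.58 and 1.5. CDK6, a kinase that carries cells out of G1 with the D cyclins, rose from 35.5 ± 4.9 to 95.8 ± 14.7 CPM (1.43 ± 0.19, adjusted p = 0.00134, edgeR). Its animals lay between 29.7 and 40.9 CPM in calves and 77.8 and 111 in steers. Of its partners, CCND2 rose by 1.45 ± 0.37 and CCND3 fell by 1.05 ± 0.20. CCND3 was at 89.6 to 113 CPM in calves and 39.5 to 60.8 in steers.

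CCNG1, an atypical cyclin induced by p53, rose from 41.7 ± 9.1 to 203 ± 70 CPM (2.28 ± 0.29). CDKN1B, the CDK inhibitor p27, rose by 0.82 ± 0.23, and TFDP2, a partner of the E2F factors, by 0.82 ± 0.22. BTG2, an antiproliferative gene induced by p53, fell from 35.1 ± 3.1 to 18.1 ± 2.0 CPM (-0.95 ± 0.17). Of these 7 genes TFDP2 had overlapping groups. Over the whole list the groups did not overlap for 7 of 42 (16.7%, against 23.3% of all tested genes). The calls of CCND2, CDKN1B, TFDP2 and STMN1 were each lost in 3 to 6 of the 8 fits without 1 library, with changes of 1.18 to 1.74, 0.67 to 0.94, 0.68 to 0.97 and -1.44 to -1.09. With the basal keratinocyte covariate all 4 of these calls were lost, and with the smooth muscle covariate all but that of CCND2. Scaling by library size ended those of CDKN1B and TFDP2, and the replicate block those of CCND2, CDKN1B and TFDP2.

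Genes outside the 53 were ranked by the correlation of their log2 CPM, less the group mean, with the mean of the 53 genes over the 8 libraries, among 13799 genes of at least 1 CPM. The leading 10 were MYBL1 (r = 0.99), NEIL3, PBK, NCAPH, CDCA8, NEK2, SKA3, LOC112444841, DUOXA2 and LOC112441879 (0.97). MYBL1 is a relative of MYBL2, NEIL3 a DNA repair glycosylase, and PBK, NCAPH, CDCA8, NEK2 and SKA3 act in mitosis. Of the leading 50, 18 were among the 73 other mitosis genes compared and 1 among the 49 other replication genes. The remaining 31 were in no pathway list. Mitosis genes had the wider calf spread (median SD of 1.46, against 0.75 in replication genes), so they weigh more in the mean of the 53 genes. Each of the 24 mitosis genes correlated more with the remaining mitosis genes than with the replication genes, and 19 of 20 replication genes the reverse. POLA1 was the exception. The roles were pooled into these classes after the values were seen, so these counts are a description and do not test the classes.

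Cell type markers were set beside these patterns. Basal keratinocyte markers, the layer that holds dividing cells, summed to 12067 to 17406 CPM in calves and 8696 to 16449 in steers. Abundant markers weigh most in such sums. Gene by gene, 8 of the 12 changes were above 0 and 4 below (8560 and 7766 of all 16326 tested genes). Mean log2 CPM of the 12 was 8.02 in calves and 8.22 in steers. In 0 of 12 were calves 1 and 3 both above calves 2 and 4. Suprabasal keratinocyte markers did show that arrangement, in 6 of 8 tested, with sums of 91686, 38215, 83875 and 73304 CPM in calves 1 to 4 and 1871 to 7415 in steers (IVL and DSG1 were at 0). Summed lymphocyte markers were 9.06, 4.83, 17 and 8.26 CPM in calves and 10.4 to 52 in steers, and 2 of 7 had the arrangement. Summed macrophage and dendritic markers were 87.5, 54.7, 103 and 62.6 CPM in calves and 35 to 100.3 in steers, with 1 of 8 so arranged and AIF1 at 0. Gene by gene, however, 7 of these 8 changes were above 0 and 1 below. Their mean log2 CPM was 0.99 in calves and 1.90 in steers. Endothelial sums ran the other way, at 463, 479, 319 and 592 CPM in calves, and 212 to 382 in steers.

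Fibroblast marker sums were 2917 and 5237 CPM in calves 1 and 2 and 1800 and 2318 in calves 3 and 4, the reverse of the replication genes, and 671 to 1562 in steers. Smooth muscle sums were lowest in calf 3 among calves (7766 CPM, against 16412 to 21871). Among steers they were highest in steer 2 (125192, against 12426 to 65495), and steer 2 was the lowest steer in 43 of the 53 genes (30% of all tested genes). The mitochondrial share of counts was lowest in calf 3 among calves (1.81%, against 2.28% to 2.56%) and 3.92% to 7.69% in steers. What part these differences have in the pattern between animals was not tested.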

How the data were processed

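Raw counts by gene name were deposited for the 8 rumen libraries. Per the file headers, the counts come from featureCounts 2.0.2, run by the authors on full transcript intervals with no strand setting and each mate tallied by itself. Intronic reads are therefore included, and a read touching more than 1 gene adds to none. The submitters' processing notes also name Trimmomatic 0.39, STAR 2.7.11a and DESeq2 1.42.0.

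Genes kept by filterByExpr were fitted in edgeR 4.0.16 (R 4.3.3) with TMM scaling and robust quasi-likelihood dispersions. The SE of a change was obtained from its F statistic, and intervals are 95%. Log2 CPM had a prior count of 2. Alternatives were other scalings and filters, DESeq2, limma-voom 3.58.1, a replicate block, 2 marker covariates and omitted libraries, and the fit was checked on simulated counts. Positions are those of the count table, whose sequence identifiers were given chromosome numbers through symbols matched to ARS-UCD2.0 (83.4% of all names matched, and all 53 genes). Libraries of a group differed far beyond sampling noise (chi-square of at least 113 per degree of freedom). P-values weigh the difference between groups against the spread between animals, and do not test a difference in spread.

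The genes, lists and tests were chosen with earlier results of these data known. Values of every animal were given for MKI67, TOP2A, CDK1, PCNA and MCM7, for called or non-overlapping genes, and for the genes of largest calf SD and largest change in each role. Some other genes with every animal's value, the arrangements of calves and the pooling of roles into 3 classes were chosen after the values were seen. Up to 5 called genes per pathway list and direction were named, and 10 by likeness. The erythroid marker list is not reported here.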

Additional observations from a re-analysis of the deposited data

Results flagged for a closer look

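Of 106 combinations of a gene and a group of 4 animals, 5 (4.72%) had 1 animal so far from the other 3 that the gap passed Dixon's 95% critical value, and chance flags about 1 in 20 such groups. In calves, CCNE1 stood at 5.35 CPM in calf 3, away from the other calves. In steers, MCM5 stood high at 82.3 CPM and MYBL2 at 53.3 CPM in steer 1. Steer 2 stood low in CCNE2, at 2.78 CPM, and in CDK1, at 11 CPM. None of the mitosis genes was among them, but the rule seeks 1 animal apart from the other 3. In each mitosis gene calves 1 and 3 were above calves 2 and 4, an arrangement the rule is poorly suited to flag. The combinations also share the same animals, so they are not independent.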

How the results depend on the processing

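The replicate numbers are shared by calves and steers in the labels but did not pair the animals: deviations of same-numbered libraries correlated at 0.20, 0.08, -0.10 and -0.27, and 1 of 8 libraries correlated best with its own number. With the number as a replicate block, 0 of the 53 genes and 5 of the pathway genes were called (1 and 8 without it), and 1831 genes in all against 2752. With the block 40 of the 53 genes kept the sign of their change. Among the genes given with every animal's value, it turned the uncalled changes of CDC20 to 0.17, MKI67 to 0.47, RRM2 to 0.24 and TOP2A to 0.56.

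The count of 1 called gene was 0 with scaling by library size only and 0 with the basal keratinocyte covariate. With single libraries omitted it was 0 to 2, and it was 2 (CCNE1 and CDK1, chosen after seeing the data) without calf 3 and steer 2 together. DESeq2 called 13 pathway genes, in a fit that called 4080 of all 16326 genes. Omitting libraries gave 4 without calf 1 (1734 of 16667 genes in all) to 12 without steer 4 (3257 of 16644). The main fit called 8 pathway genes and 2752 of 16326 genes in all. The median change of the 53 genes was -0.31 to 0.50 with 1 library omitted, -0.37 without calf 2 and steer 4, and 0.71 without calf 3 and steer 2. The median steer SD was 0.25 without steer 2, up to 0.46 without steer 3, and 0.26 without calf 3 and steer 2. Scaling by library size only moved the median change of all genes from 0.04 to -0.07. The arrangements of calves held under 3 other scalings in 23 to 24 mitosis genes and 17 to 18 replication genes. The cause of these changes was not tested.

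The sign of the change was kept by 38 of the 53 genes in limma-voom and by 35 with either marker covariate. Among the genes given with every animal's value by the naming rule, those that turned were all uncalled. In limma-voom they were 0.22 for CDC20, 0.10 for FOXM1, 0.45 for MKI67, 0.30 for RRM2 and 0.64 for TOP2A. With the smooth muscle covariate they were 0.74 for FOXM1, 0.44 for MKI67, 0.34 for PCNA, 0.92 for RRM2 and 0.92 for TOP2A. With the basal keratinocyte covariate they were 0.35 for CDC20, 0.61 for FOXM1, 0.66 for MKI67, 0.051 for PCNA, 0.35 for RRM2 and 1.37 for TOP2A. With 1 or 2 libraries omitted the changes ranged from -0.71 to 0.29 for CDC20, from -0.75 to 0.78 for FOXM1, from -0.24 to 0.59 for GINS2, from -0.26 to 1.05 for KIF2C and from -0.25 to 0.10 for MCM7. They ranged from -0.58 to 0.71 for MKI67, from -0.32 to 0.35 for PCNA, from -0.54 to 0.81 for RRM2, from -0.54 to 1.11 for TOP2A, from -0.28 to 1.06 for TTK and from -0.25 to 0.93 for UBE2C. With 4 animals in a group, the spread between calves limits these comparisons, and the lowest count of the 53 genes in a library was 20.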
